A study of Mus musculus with 18 samples.

Results

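IslIII is one of the regulatory islands of the gene desert on the 5′ side of the mouse *HoxD* cluster, and its contacts were taken from 5C libraries of 2 limb cell lines. The IslIII window spans 74004374 to 74037000 on chromosome 2 (NCBIM37/mm9) and holds 8 of the 203 EcoRI fragments in the limb design. All pairs of primers in opposite directions with 1 end on these fragments and midpoints at least 10 kb apart were used, which gave 787 of 10068 such pairs (7.82%). No annotated gene overlaps the window. The closest is *Gm13667*, which ends 15.5 kb to its 5′ side. The window was read from a drawn map by its outer coordinates. Scaling the same map on its genes places the drawn IslIII probe just 3′ of it, at fragments from 74049985 to 74084842. That moved window holds only 3 fragments and 301 pairs, and its values are given below for some of the results.

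Limb patterning in the autopod, the future hand and foot, depends on strong transcription of the genes at the 5′ end of *HoxD*, *Hoxd13* to *Hoxd10*. Their digit enhancers lie scattered over the 5′ gene desert, among them the global control region (GCR), Prox and several islands including IslIII, and act on the genes over long distances. *Hoxd9* to *Hoxd1*, on the other side of the cluster, are controlled in the early limb and forearm mainly from the 3′ gene desert. In 5C, fixed chromatin is cut with a restriction enzyme and ligated, and the junction of each fragment pair is copied by ligating 1 primer at each fragment end, so that read number reports how often the pair was joined.

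P2 cells are a mesenchymal line from the posterior distal forelimb bud of Immortomouse embryos at E10.5, and A2 cells are the corresponding anterior line. Both were grown at 33°C with 20 ng/ml interferon-γ, untreated, and fixed in 1% formaldehyde. Immortomouse cells carry a conditional immortalizing transgene, so both lines had been expanded in culture. Each line was measured in 2 libraries, named 1 and 2 in the order of their records. Posterior and anterior origin cannot be told apart from differences between these 2 lines, and p-values measure the spread between libraries only. Values are reads per 1000 reads of the sequencing run, as normalized by the authors.

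Library totals were 478818 and 2096681 reads in P2 and 1081237 and 718996 in A2. A count of 3 reads is worth 0.00627 and 0.00143 reads per 1000 in the P2 libraries and 0.00277 and 0.00417 in the A2 libraries, which takes in counting error alone, since PCR copies are not independent molecules. IslIII pairs without a read made up 1.40% and 16.4% in the P2 libraries and 3.81% and 27.8% in the A2 libraries, close to the shares among all pairs (1.97%, 13.8%, 4.20% and 23.4% in the same order). Library 1 of each line therefore had few empty pairs and library 2 many, whatever its depth. The 2 first libraries were also more alike (r = 0.64 across the 787 log2 pair values) than the 2 libraries of P2 (r = 0.58) or of A2 (r = 0.43). The 2 second libraries were the least alike of the library pairs (r = 0.41), and their fragments are listed differently in the file headers. Since first and second libraries differ in these ways, P2 and A2 are also compared within the first and within the second libraries below.

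The 8 fragments measured between 401 and 7590 bp, 4 of each primer direction. Their 3′ ends are the sites at which the ligation junctions were read, and are shown with those of the 3 partner fragments that stood highest above the distance decay. Each run of 60 bases (plus strand, NCBIM37/mm9) is centred on the end of the fragment, with the EcoRI site in capitals.
hoxd_53: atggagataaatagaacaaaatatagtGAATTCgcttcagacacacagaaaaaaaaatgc
hoxd_54: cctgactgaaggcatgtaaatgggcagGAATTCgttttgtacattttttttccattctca
hoxd_57: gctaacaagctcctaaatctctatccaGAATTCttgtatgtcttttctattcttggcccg
hoxd_59: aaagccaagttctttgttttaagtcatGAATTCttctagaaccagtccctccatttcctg
hoxd_60: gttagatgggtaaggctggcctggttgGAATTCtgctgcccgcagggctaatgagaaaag
hoxd_61: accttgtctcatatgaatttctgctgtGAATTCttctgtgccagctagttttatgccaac
hoxd_62: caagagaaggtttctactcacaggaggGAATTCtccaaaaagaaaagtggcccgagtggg
hoxd_63: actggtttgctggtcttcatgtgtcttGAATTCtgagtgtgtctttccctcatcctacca
mHoxD_69: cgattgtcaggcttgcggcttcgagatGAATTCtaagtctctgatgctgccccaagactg
mHoxD_75: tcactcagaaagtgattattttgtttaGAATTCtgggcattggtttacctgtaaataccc
mHoxD_48: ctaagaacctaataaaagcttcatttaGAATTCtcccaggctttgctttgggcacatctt

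The fragments of the window differed in overall contact frequency. hoxd_57 (74008375 to 74015964, the longest) had the highest mean over its 99 pairs, at 0.0741 and 0.0663 reads per 1000 in P2 and 0.0728 and 0.0591 in A2. hoxd_60 (74025306 to 74026601, 1296 bp) had the lowest, at 0.0266 and 0.0255 in P2 and 0.0346 and 0.0258 in A2, and lay below every other fragment in each of the 4 libraries. hoxd_54, hoxd_59, hoxd_61 and hoxd_53 averaged 0.0601, 0.0580, 0.0556 and 0.0550 over the 4 libraries, with SDs of 0.00906, 0.0110, 0.00554 and 0.00497. hoxd_63 (0.0440 ± 0.00579) and hoxd_62 (0.0431 ± 0.00265, SD, n = 4 libraries each) came next. Neither line had the higher mean throughout: P2 and A2 libraries overlapped at 5 of the 8 fragments, with both P2 libraries above both A2 libraries at hoxd_54 and both below at hoxd_53 and hoxd_63.

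**Figure D1:**
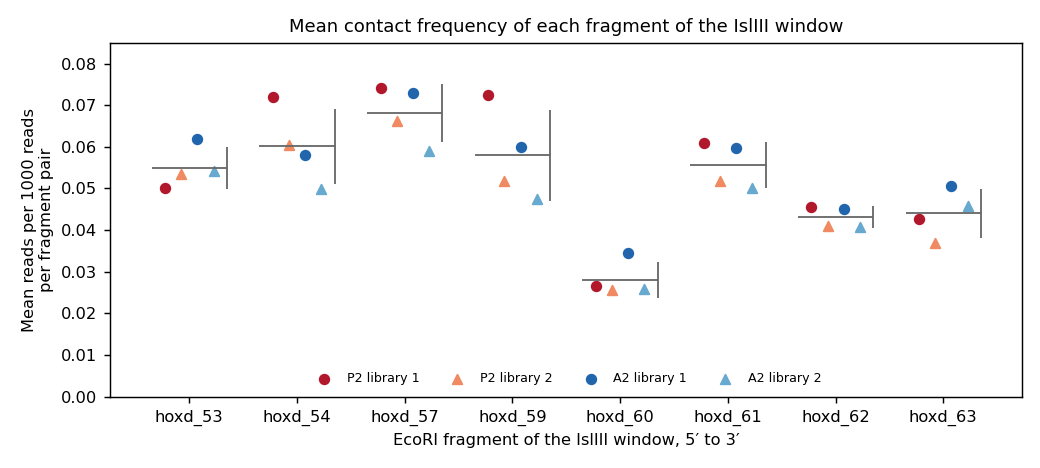
Mean contact frequency of each of the 8 EcoRI fragments of the IslIII window (x axis, 5′ to 3′) over its pairs at least 10 kb apart, in reads per 1000 reads (y axis). Points are libraries, horizontal bars the mean and vertical bars the SD of the 4 libraries, and hoxd_60 is lowest in all 4.

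Along the region, contacts within the window were the most frequent in all 4 libraries. Beyond the windows on its 2 sides, the highest window mean lay 487 kb away over the 5′ end of *HoxD* in both P2 libraries and A2 library 1, and at the GCR window in A2 library 2. Pairs within the window, 12.5 to 28.1 kb apart, averaged 0.176 and 0.194 reads per 1000 in P2 and 0.154 and 0.166 in A2. The 5′ side window (73883581 to 74004373) followed with 0.121 and 0.0992 in P2 and 0.127 and 0.0941 in A2, and the 3′ side window (74049985 to 74137902) had 0.0830 and 0.0765 in P2 and 0.0931 and 0.0846 in A2. Frequencies then fell with distance to 0.0511 and 0.0403 in P2 and 0.0474 and 0.0455 in A2 for the mid desert (74144730 to 74231130), on average 175 kb away.

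Contacts with the windows between the mid desert and *Evx2* fell with distance in both A2 libraries. In both P2 libraries Prox, the farthest of them, was above the *Lnp* window. The GCR window (74231131 to 74325626) stood at 0.0759 and 0.0572 in P2 and 0.0661 and 0.0663 in A2. Values of the *Lnp* window (74330936 to 74415002) were 0.0581 and 0.0465 in P2 and 0.0598 and 0.0465 in A2. It covers most of *Lnp*, a gene transcribed in the limb under the same desert enhancers, and also fragments between GCR and that gene. The Prox window (74427780 to 74483051), between *Lnp* and *Evx2*, had 0.0654 and 0.0514 in P2 and 0.0528 and 0.0381 in A2.

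The window from *Evx2* to *Hoxd11* (74483052 to 74524317) contained 8 fragments, 32 IslIII pairs and 12213 IslIII reads over the 4 libraries. It includes *Evx2*, a homeobox gene next to the cluster that shares its digit enhancers, and *Hoxd13*, *Hoxd12* and *Hoxd11*. No assayed fragment covers *Hoxd10*. At a mean distance of 487 kb from IslIII, its frequency was 0.0824 and 0.108 in P2 and 0.0708 and 0.0541 in A2. All 4 values exceed those of the mid desert, on average 175 kb away, in the same library.

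Partners past the 5′ genes had low frequencies in every library. From *Hoxd9* to *Hoxd1* (74537329 to 74605698) the values were 0.0304 and 0.0368 in P2 and 0.0420 and 0.0308 in A2. Between *Hoxd1* and *Mtx2* they were 0.0201 and 0.0196 in P2 and 0.0227 and 0.0252 in A2, and over *Mtx2*, a broadly expressed gene that borders the cluster, 0.0215 and 0.0166 in P2 and 0.0243 and 0.0174 in A2. The gene desert 3′ of *Mtx2* had 0.0299 and 0.0259 in P2 and 0.0367 and 0.0258 in A2, and the far 5′ end of the region (73751054 to 73870766) 0.0670 and 0.0478 in P2 and 0.0560 and 0.0511 in A2.

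**Figure D2:**
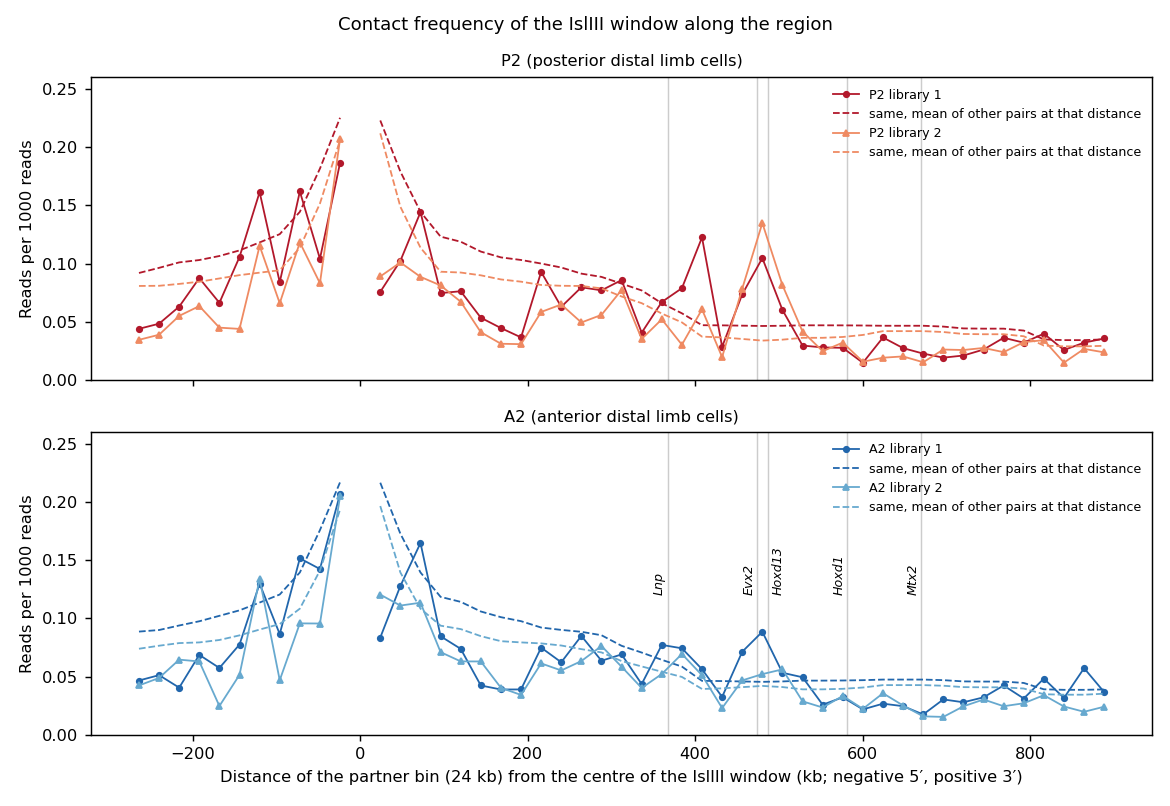
Contact frequency of the IslIII window with 24-kb bins (y axis, reads per 1000 reads) against distance from its centre (x axis, kb), with P2 libraries in the upper and A2 libraries in the lower panel and gray lines at gene midpoints. Solid lines with points are IslIII pairs and dashed lines the mean of all other pairs at the same distances, and in the bin at 480 kb the solid lines reach 0.105 and 0.135 in P2 and 0.0884 and 0.0521 in A2.

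Frequency was next compared with the distance decay. The expected value of a pair was the mean of all pairs outside the IslIII window in the same distance class and library, and the log2 ratio of summed observed to summed expected values was tested against 0 with limma over all 91 pairs of the 13 windows. Of these 91, 25.3% lay above and 56.0% below the decay after Benjamini-Hochberg adjustment, so a position on one side of it is common. IslIII lay above it at 2 of its 13 windows, Prox and *Evx2*–*Hoxd11*, and below it at the other 11. The limma fit pooled 1 spread over all window pairs, which share fragments, and its p-values may be too small.

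*Evx2*–*Hoxd11* stood out with log2 ratios of 0.83 and 1.66 in P2 and 0.63 and 0.38 in A2. The mean was 0.88, or 1.83-fold the expected frequency (limma adjusted p = 7.6e-16), with an SD of 0.55 over the 4 libraries. Its SE of 0.10 comes from the limma fit and was the same for every window, and the SEs of ratios below are also those of limma fits. With the spread of this window pair alone, at 2 degrees of freedom, the adjusted p was 0.084. Prox had 0.48 and 0.50 in P2 and 0.20 and -0.08 in A2, with a mean of 0.28 ± 0.10 (adjusted p = 0.0068), and failed the test without A2 library 1 (0.21, adjusted p = 0.14). The same partner windows had mean log2 ratios of 0.61 (*Evx2*–*Hoxd11*) and -0.26 (Prox) with fragments outside the IslIII window, so *Evx2*–*Hoxd11* was above the decay with the rest of the region as well.

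*Hoxd9*–*Hoxd1*, directly next to these genes, was below the decay with IslIII at -0.63 and 0.02 in P2 and -0.15 and -0.34 in A2 (mean -0.28 ± 0.10, adjusted p = 0.0068), while its mean with other fragments was 0.51. It failed the test without P2 library 1 (-0.11), A2 library 1 (-0.32) or A2 library 2 (-0.23). Mean ratios were lowest at *Mtx2* (-1.17), in the mid desert (-1.02) and between *Hoxd1* and *Mtx2* (-0.99), where all 4 libraries lay at or below -0.70. *Mtx2* had a mean of -0.10 with other fragments, whereas the mid desert was low with them too, at -0.77. The far 5′ end (-0.70), the 3′ side (-0.61), pairs within the window (-0.47), the 3′ desert (-0.38), GCR (-0.34), the 5′ side (-0.33) and *Lnp* (-0.31) completed the windows below the decay. GCR failed the test without A2 library 1 (-0.27), and the 5′ side (-0.30), *Lnp* (-0.28) and the 3′ desert (-0.29) without A2 library 2. Each fragment was also scaled by 1 efficiency factor, its observed to expected ratio over all its pairs, averaged over the 4 libraries. No efficiency was measured, and the factor would also remove real differences in contact level between fragments. The mid desert then lay at 0.18, the 3′ side at 0.26 and GCR at 0.46. With this factor *Mtx2* stayed below the decay at -0.62 and *Evx2*–*Hoxd11* above it at 0.49 (limma adjusted p = 0.0087). Prox was then higher than *Evx2*–*Hoxd11*, at 0.76 (limma adjusted p = 7.6e-05). Without the IslIII fragment of the highest mean, and without the factor, Prox was at 0.17 and failed the test (limma adjusted p = 0.10).

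**Figure D3:**
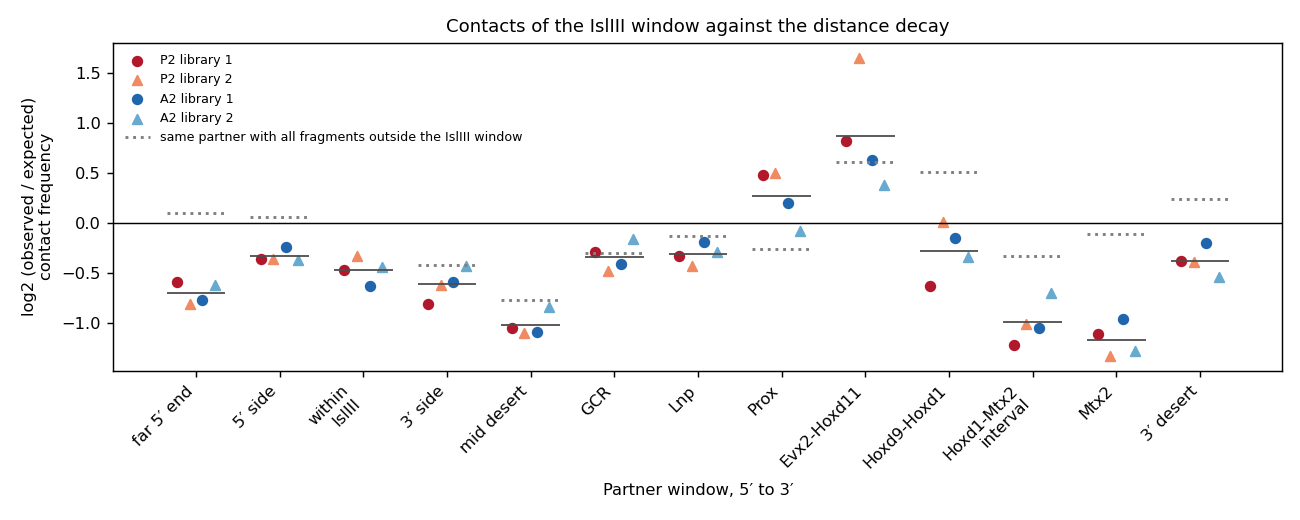
Log2 ratio of observed to expected contact frequency of the IslIII window (y axis) with each partner window (x axis, 5′ to 3′). Points are libraries and solid bars their mean, and dotted bars give the same partner with all fragments outside the IslIII window. All 4 libraries are above 0 at *Evx2*–*Hoxd11* (labelled Evx2-Hoxd11) and at or below -0.96 at *Mtx2*.

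Single partner fragments showed where in these windows the contacts lay. Of 195 partner fragments, 14 were above the decay in all 4 libraries and 109 below it in all 4. The *Evx2*–*Hoxd11* window contributed 4 of its 8 fragments to those above and none to those below, and Prox 3 of 10 to those above. The shares of such fragments were not computed for other windows of the region. The counts therefore do not show whether IslIII is unusual. Each fragment was paired with only 4 IslIII fragments, and across the 192 partner fragments with reads in every library, the level with IslIII and the level with the rest of the region correlated at r = 0.74, as a description of fragments that share libraries and primers.

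mHoxD_69 (74498789 to 74505529), between *Evx2* and *Hoxd13*, was highest, with 0.158 and 0.208 reads per 1000 in P2 and 0.110 and 0.0852 in A2. Its log2 ratio to the decay averaged 1.67, against 1.04 with fragments outside the window. mHoxD_75 (74516252 to 74524317), which overlaps *Hoxd11*, followed with 0.131 and 0.159 in P2 and 0.118 and 0.111 in A2 and a mean ratio of 1.63, close to its 1.55 with the rest of the region. mHoxD_70 (74505530 to 74511688), which carries *Hoxd13*, the gene at the end of the cluster whose product patterns the digits, had 0.131 and 0.154 in P2 and 0.0997 and 0.0476 in A2, with a mean ratio of 1.25 against 1.33 elsewhere. At these 3 fragments both P2 libraries were above both A2 libraries, which held for 28 of the 195 partner fragments, for 12.2% of means of 1 fragment over another window in the region, and for 34.8% of fragments 5′ of *Evx2* in their mean with this window.

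The remaining fragments of the window were less frequent partners. mHoxD_68 (74498312 to 74498788) averaged a log2 ratio of 0.85, and mHoxD_67, which carries *Evx2*, 0.24. The 3 fragments overlapping *Hoxd12* were at 0.36 (mHoxD_73), -0.21 (mHoxD_71) and -0.63 (mHoxD_74). mHoxD_71 and mHoxD_74 were also below the decay with the rest of the region, at -0.87 and -0.85.

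In Prox, mHoxD_48 (74427780 to 74439611) had 0.191 and 0.0832 reads per 1000 in P2 and 0.0768 and 0.0841 in A2, so that P2 library 1 alone stood apart, and its mean log2 ratio was 1.25. mHoxD_65 (74472944 to 74482147), the closest of these to *Evx2*, had 0.106 and 0.144 in P2 and 0.109 and 0.0518 in A2 and a mean ratio of 1.21. mHoxD_63 (74467293 to 74470655) was at 0.72 with IslIII but at -0.10 with the rest of the region. The only other fragment among the 8 highest was mHoxD_161 (74836036 to 74843548) in the 3′ desert, 819 kb away, with 0.0553 and 0.0538 in P2 and 0.0624 and 0.0643 in A2 (mean ratio 0.80, and 0.63 elsewhere).

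The lowest partners were few-read fragments. mHoxD_33, mHoxD_102 and mHoxD_134 had no IslIII read in 1 library each and were not ranked. Among the others, hoxd_98 and hoxd_102 in the mid desert had mean log2 ratios of -3.84 and -3.46, hoxd_38 on the 5′ side -3.20 and mHoxD_106 between *Hoxd1* and *Mtx2* -2.91. All 4 were also low with the rest of the region, at -2.40, -2.41, -1.74 and -1.88. hoxd_98 had only 1 read in A2 library 2 (-7.93), and was at -1.77 and -2.97 in P2 and -2.69 in A2 library 1.

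The contact with the 5′ genes was not spread evenly over the IslIII fragments. hoxd_53, at the 5′ edge, had the highest mean with *Evx2*–*Hoxd11* over the 4 libraries, at 0.108 and 0.183 reads per 1000 in P2 and 0.101 and 0.0702 in A2. hoxd_57 had 0.105 and 0.134 in P2 and 0.0731 and 0.0678 in A2, and hoxd_59 had 0.115 and 0.145 in P2 and 0.0708 and 0.0428 in A2. hoxd_60, again lowest, had 0.0329 and 0.0453 in P2 and 0.0486 and 0.0223 in A2 and was the only fragment with a mean log2 ratio below 0 (-0.22). The other 4 had mean ratios of 0.47 to 1.07.

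The P2 and A2 lines were compared to ask whether IslIII contacts differ between posterior and anterior cells. On the frequency scale, log2(value + 0.02), no window pair passed the limma test (0 of 91, 0.0% called; 2 of 91, or 2.2%, had an unadjusted p under 0.05, of which 1 was an IslIII pair). That pair was *Evx2*–*Hoxd11*, with a mean of 0.0953 ± 0.0182 in P2 and 0.0625 ± 0.0118 in A2 (SD, n = 2 each), a P2 minus A2 difference of 0.48 (95% interval 0.06 to 0.90) and an adjusted p of 0.99. Both P2 values lay above both A2 values. The difference was 0.32 without P2 library 2 and 0.15 in the moved window, and 0.17 within the first and 0.79 within the second libraries. Prox had 0.0584 ± 0.00988 in P2 and 0.0454 ± 0.0104 in A2, a difference of 0.26 (-0.15 to 0.68), and P2 library 2 lay below A2 library 1. That difference was 0.14 without P2 library 1, 0.43 without A2 library 1, 0.10 without A2 library 2 and -0.080 in the moved window. At the other 11 windows the difference ran from -0.14 to 0.19, and each 95% interval included 0, with bounds no farther out than -0.49 and 0.55.

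Relative to the distance decay, 1 of 91 window pairs differed between the lines (1.1%), and it was IslIII with *Evx2*–*Hoxd11*. The mean log2 ratio was 1.24 in P2 and 0.51 in A2. Their difference was 0.73 ± 0.19 (SE of the limma fit, 95% interval 0.35 to 1.11, limma adjusted p = 0.019, or 0.91 with the spread of this contrast alone). This call depended on P2 library 2: without it the difference was 0.32 (adjusted p = 0.69). It also failed without A2 library 1 (0.86, adjusted p = 0.96) or A2 library 2 (0.61, adjusted p = 1.00), with library number as a block (0.65) and with the expected value taken as a median (0.97). Within the first libraries the difference was 0.19 and within the second libraries 1.27. In the moved window it was 0.22 (adjusted p = 0.94). Prox differed by 0.43 (0.05 to 0.81, adjusted p = 0.81), and by -0.09 from the moved window.

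**Figure D4:**
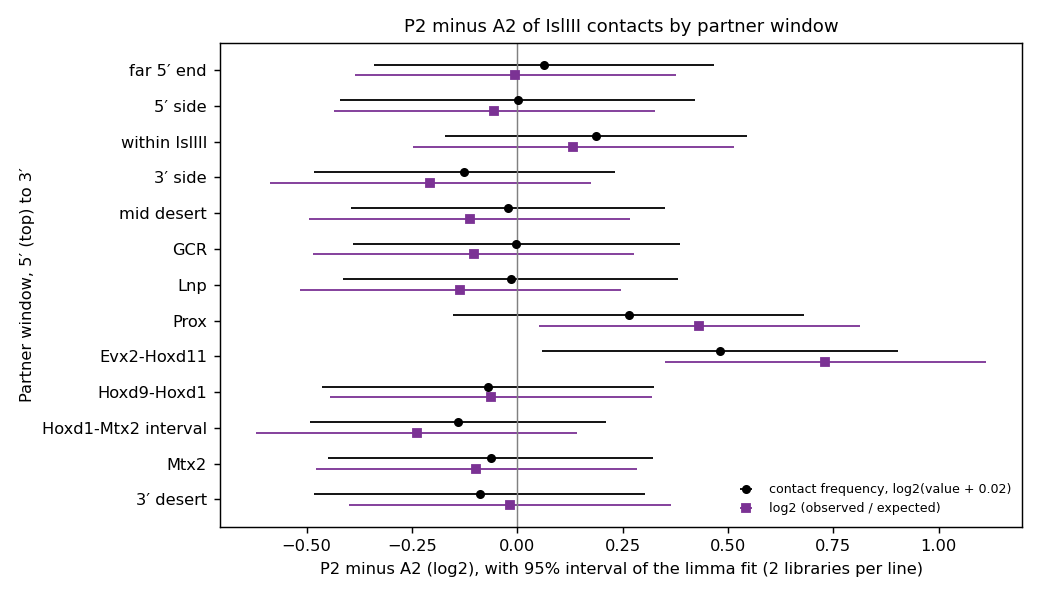
P2 minus A2 difference of IslIII contacts (x axis, log2) for each partner window (y axis, 5′ at the top), as contact frequency (circles) and as ratio to the distance decay (squares), with 95% intervals of the limma fit over 2 libraries per line. The *Evx2*–*Hoxd11* intervals, 0.06 to 0.90 and 0.35 to 1.11, lie above 0.

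Among fragment pairs, 622 of the 787 IslIII pairs had a mean above 0.02 and were tested with 8157 pairs in all. None passed the limma test (0 of 8157, 0.0%), and without A2 library 1 there were 5 IslIII calls among 46 in all. At an unadjusted p under 0.05, 16 IslIII pairs were higher and 10 lower in P2, or 2.57% and 1.61% of those tested, against 2.12% and 1.4% over all pairs. Both P2 libraries lay above both A2 libraries in 129 of the 787 pairs (16.4%) and below them in 122 (15.5%), against 15.1% and 14.4% of all pairs. For *Evx2*–*Hoxd11* the counts were 14 and 2 of 32 pairs, and the P2 mean was higher in 23. Means of an IslIII fragment over this window had both P2 libraries on top for 6 of 8 fragments, against 34.8% of all fragments 5′ of *Evx2*. These 8 share the same partners and are not replicates. Over partner fragments, both P2 libraries were above both A2 libraries in 28 of 195 and below in 23, against 12.2% and 14.3% of such means in the region.

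The 3 pairs with the smallest p did not pass. hoxd_59 with hoxd_70 on the 3′ side had 0.188 and 0.191 reads per 1000 in P2 and 0.0879 and 0 in A2 (unadjusted p = 0.0012, limma adjusted p = 1.00). The pair of hoxd_54 and hoxd_61 within the window had 0.269 and 0.290 in P2 and 0.0610 and 0.104 in A2 (unadjusted p = 0.0033). hoxd_57 with hoxd_6, at the far 5′ end, had 0.0480 and 0.00238 in P2 and 0.0814 and 0.195 in A2 (unadjusted p = 0.0069).

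To ask whether frequent contact with the 5′ genes was particular to IslIII, its ratio at *Evx2*–*Hoxd11* was set against those of the other desert windows within each library. It was not the highest. IslIII had a mean log2 ratio of 0.88, against 1.50 for the 5′ side and 1.46 for the far 5′ end, both farther from the genes, 0.91 for the 3′ side, 0.20 for GCR and -0.12 for the mid desert. IslIII lay below the 5′ side by 0.62 ± 0.13 (limma adjusted p = 8.6e-05) and below the far 5′ end by 0.58 ± 0.13 (1.8e-04). It lay above GCR by 0.67 ± 0.13 (2.9e-05) and above the mid desert by 0.99 ± 0.13 (3.7e-08). From the 3′ side it differed by -0.03 (95% interval -0.29 to 0.22, adjusted p = 0.88). The 3′ side window holds drawn islands IV and V and the fragments of the moved window. That comparison may therefore set IslIII against other islands or against itself. These comparisons share the same IslIII values, and the 4 calls failed without A2 library 1 (-0.76, -0.73, 0.56 and 0.90 in the order given) and without A2 library 2 (-0.48, -0.43, 0.79 and 1.09).

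In plain frequency the order was different, and GCR lies closer to the genes. Against the IslIII values above, GCR had 0.117 and 0.0997 reads per 1000 at *Evx2*–*Hoxd11* in P2 and 0.0944 and 0.0912 in A2, and only P2 library 2 had the higher value at IslIII. The P2 minus A2 difference of IslIII minus GCR was 0.60 ± 0.25 (limma adjusted p = 0.0495), with 0.57 and 1.38 in P2 and 0.60 and 0.15 in A2, so that A2 library 1 lay above P2 library 1. It was -0.03 within the first and 1.23 within the second libraries, and failed the test without P2 library 2 (0.20), A2 library 1 (0.83) or A2 library 2 (0.37). The same difference against the other 4 desert windows ran from 0.43 to 0.50, with adjusted p of 0.11 to 0.16.

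Contacts of IslIII up to *Hoxd11* were compared with those from *Hoxd9* on. The ratio pools all partners on either side and does not place a drop inside the cluster. GCR (-0.34) and *Lnp* (-0.31), among the partners up to *Hoxd11*, were no higher against the decay than *Hoxd9*–*Hoxd1* (-0.28). Partners at least 200 kb 3′ of the window and up to *Hoxd11* were higher against the decay than those from *Hoxd9* on, by a log2 ratio of 0.59 and 0.52 in P2 and 0.26 and 0.49 in A2 (mean 0.46 ± 0.07, 1.38-fold, limma adjusted p = 0.0032). Without A2 library 2 the mean was 0.41 (adjusted p = 0.069). P2 minus A2 was 0.19 (-0.14 to 0.51, adjusted p = 0.35). The other desert windows also had positive means, 0.28 at the far 5′ end, 0.31 at the 5′ side, 0.65 at the 3′ side and in the mid desert and 0.77 at GCR, and all 6 passed the test. The IslIII value was between those of the windows to its 5′ and its 3′ side. The partners up to *Hoxd11* start 200 kb 3′ of each window, so these values rest on different sets of partners.

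**Figure D5:**
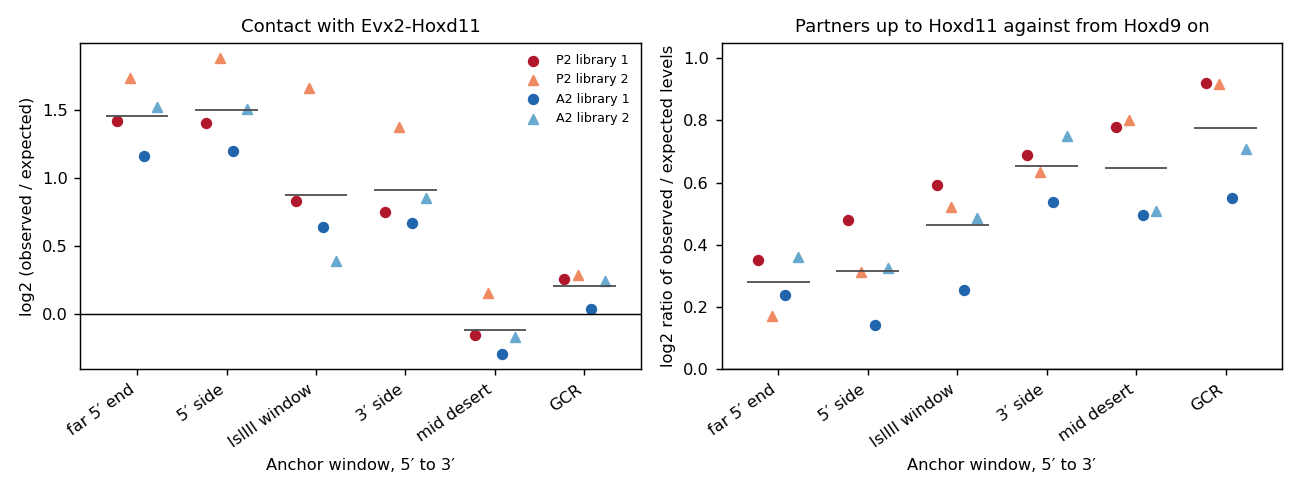
Left, log2 ratio of observed to expected contact with *Evx2*–*Hoxd11* (y axis) for 6 windows of the 5′ desert (x axis, 5′ to 3′). Right, log2 ratio of the level of partners up to *Hoxd11* to that of partners from *Hoxd9* on, for the same windows. Points are libraries and bars their mean, and on the left IslIII (0.88) is below the far 5′ end (1.46) and the 5′ side (1.50) and above the mid desert (-0.12).

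Around the window itself, contacts were higher on the 5′ than on the 3′ side. Partners 10 to 240 kb to the 5′ side had a log2 ratio over those at 10 to 240 kb to the 3′ side of 0.43 and 0.33 in P2 and 0.36 and 0.13 in A2, with a mean of 0.31 ± 0.07 (limma adjusted p = 0.011). The test failed without A2 library 1 (0.26, adjusted p = 0.10) and without A2 library 2 (0.37, adjusted p = 0.077). P2 minus A2 was 0.13 (-0.19 to 0.46, adjusted p = 0.54). The direction was turned by the primer efficiency factor, under which the mean was -0.25 (adjusted p = 0.0036).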

How the data were processed

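5C libraries of P2 and A2 limb cells (2 each) were used. The 14 ESC libraries hold no fragment of the IslIII window and were not used here. The deposited matrices hold signal values: reads per fragment pair, which the authors scaled to 1000 reads of the sequencing run (build mm9 per the labels). No aligner is named in the sources used here. Values were whole multiples of 1 step, which gave the total reads per library. Primer directions were read from which pairs hold contacts, and fragments were assigned to 13 windows by midpoint. Pairs under 10 kb apart were left out.

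Log2 values had a pseudocount of 0.02. Expected values were means over 18 distance classes. Tests used limma 3.58.1 (R 4.3.3), two-sided, with Benjamini-Hochberg adjustment at 0.05 over 91 window pairs, 8157 fragment pairs, 34 side and boundary contrasts or 30 anchor contrasts, at 8.59 (frequency), 182 (decay), 6.14 and 30 degrees of freedom borrowed across contrasts that are not independent. An exact permutation test of 2 against 2 libraries cannot give a p below 0.333. The procedure was run on simulated data with independent noise in each pair and no difference between first and second libraries beyond depth. That run therefore does not test whether the p-values hold with shared fragments or with such a difference. The window, members and contrasts were chosen with earlier results of these data known. Named items are all windows and IslIII fragments, the 8 highest and 4 lowest partner fragments, and the 3 pairs of smallest p. The remaining fragments of the *Evx2*–*Hoxd11* window were named after their values had been seen. Python 3.11.15, numpy 2.4.6, pandas 2.3.3 and pysam were used.

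Alternatives covered the pseudocount, scaling, filter, bins, minimum distance, expected value, primer efficiency, the moved window, the highest fragment, each library left out and library number as a block. The spread of each contrast alone was added after seeing the data.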

Additional observations from a re-analysis of the deposited data

Results flagged for a closer look

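The distance-corrected contact of the IslIII window with *Evx2*–*Hoxd11* differed between the lines in the limma test, by 0.73 (P2 minus A2, log2). Both P2 libraries (0.83 and 1.66) lay above both A2 libraries (0.63 and 0.38). The test was passed under only 3 of 12 alternatives, and not without P2 library 2.

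The excess of the IslIII window over GCR at the same genes also differed between the lines in the limma test, by 0.60 (P2 minus A2, log2), with 0.57 and 1.38 in P2 and 0.60 and 0.15 in A2. The values of the lines overlapped, and the difference ran from 0.085 to 1.00 over 12 alternatives. The test was passed under only 3 of these 12.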

How the results depend on the processing

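The contact of IslIII with *Evx2*–*Hoxd11* lay above the distance decay under all 12 alternatives (0.49 to 1.37) and failed the test only with the spread of this contrast alone (0.88). The number of windows called above the decay was 5 with the primer efficiency factor, 1 without the fragment of the highest mean, 0 with each spread alone and 1 to 2 with a library left out. Those below numbered 4 with a median in place of the mean, 6 with expected values made without pairs from *Evx2* to *Hoxd1*, 3 with the factor and 7 to 11 with a library left out. Signs turned with the factor at the 5′ side (0.052), within the window (0.26), at the 3′ side (0.26), in the mid desert (0.18), at GCR (0.46), *Lnp* (0.18) and the 3′ desert (0.0072). With the median they turned at GCR (0.27), *Lnp* (0.37), *Hoxd9*–*Hoxd1* (0.27) and the 3′ desert (0.073), and without pairs from *Evx2* to *Hoxd1* at GCR (0.18) and *Lnp* (0.14). The cause was not tested.

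The P2 minus A2 difference at *Evx2*–*Hoxd11* relative to the decay did not pass with the median (0.79), without pairs from *Evx2* to *Hoxd1* (0.75), with the factor (0.58), in the moved window (0.22), with library number as a block (0.73), with its own spread (0.73) or, of the libraries left out (0.32 to 1.15), without any but P2 library 1. The count of such calls was 0 with the median, without pairs from *Evx2* to *Hoxd1*, with the factor, with the block and with each spread alone, and 0 to 1 with a library left out. The 1 call in the moved window was within that window (-1.03). The paired check is only a description, since the numbers are record order: the libraries numbered 1 correlated at 0.64 and those numbered 2 at 0.41, and besides this the block ended the P2 minus A2 call of IslIII minus GCR (0.60) and the call of *Hoxd9*–*Hoxd1* below the decay (-0.28), and no other. In the moved window the P2 minus A2 difference of Prox was -0.080 (frequency) and -0.086 (relative to the decay), and that of the sides -0.066. IslIII fragment pairs called numbered 0 to 5 with a library left out, 5 being without A2 library 1. Frequency calls over windows were 0 under all 13 alternatives.

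The ratio up to *Hoxd11* against from *Hoxd9* on failed the test with its own spread (0.46) and ran from 0.41 to 0.52 with a library left out, failing without A2 library 2. That of the 5′ to the 3′ side was -0.25 with the factor, failed with its own spread (0.31) and ran from 0.26 to 0.37 with a library left out, failing without either A2 library. Against other anchors, calls failed with their own spread at the far 5′ end (-0.58), the 5′ side (-0.62), the mid desert (0.99) and GCR (0.67), at the 5′ side with the factor (-0.19) and at GCR without pairs from *Evx2* to *Hoxd1* (0.29). The 3′ side differed with the factor (-0.33) and changed sign in the moved window (0.0010). With a library left out these differences ran from -0.73 to -0.43 (far 5′ end), -0.76 to -0.48 (5′ side), -0.14 to 0.075 (3′ side, also 0.018 without P2 library 1), 0.86 to 1.12 (mid desert) and 0.47 to 0.88 (GCR). Fragment pairs near the value of 3 reads are at the limit of the depth.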
